A study of Homo sapiens with 6 samples.

Results

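FGFBP1, the 4 FGF receptors FGFR1, FGFR2, FGFR3 and FGFR4, the receptor-like gene FGFRL1 and the ligand FGF2 were followed in tumour spheroids grown in stiff or soft matrix. These 7 genes were taken by name from the 38167 genes of the count table. They were chosen by the stiff and soft levels of FGFBP1, whose difference was already known, together with its partner genes; their values are therefore given as a description, without a test. All 7 had a row, and 6 passed the expression filter; FGFR1 did not. The stiff group was Cal27 spheroids in Matrigel at 12 mg/mL, and the soft group was Cal27 spheroids in Matrigel at 3 mg/mL, both collected on day 14, with 3 RNA sequencing libraries each. Cal27 is an established human line from a squamous carcinoma of the tongue, so each group rests on 1 line, and Matrigel is an extract of basement membrane proteins that forms a gel when warmed. The gel was made stiffer by adding more extract, so stiffness and matrix dose cannot be told apart.

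Fibroblast growth factors are secreted ligands that bind receptor tyrosine kinases at the cell surface, together with heparan sulfate. In epithelia, FGFR2 and FGFR3 are the receptors usually described, and stromal ligands such as FGF7 act on the epithelial splice form of FGFR2. FGF2 is held by heparan sulfate in the matrix, and FGFBP1 is a secreted carrier that binds it and releases it from that store. FGFRL1 binds ligands but lacks the intracellular kinase domain. Activated receptors signal through the adaptor FRS2 to RAS and ERK, which induce their own inhibitors.

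The libraries held between 30656278 and 40583044 counted fragments. Stiff replicate 2 stood apart from the other stiff libraries on the second principal component (-35.0, against 21.5 and 18.3 for stiff replicates 1 and 3), so calls that it changes are given without it. Soft replicate 2 was displaced to the same side (-13.0, against 1.98 and 6.28 for soft replicates 1 and 3). All 7 squamous epithelial markers were abundant, with summed levels of 14993 to 15880 CPM in stiff and 4111 to 4536 CPM in soft. KRT5 and KRT14 held most of the stiff sum (means of 6486 and 5160 CPM), so the sum does not stand for each marker. In the edgeR test used below, 5 of the 7 rose. EPCAM fell 1.26-fold (edgeR adjusted p = 0.0110) and DSG3 did not pass (edgeR adjusted p = 0.0746). CPM are counts scaled by library size to a fixed total, so they do not account for gene length. Of 8 fibroblast markers, THY1 was at 0 counts in every library and COL3A1, DCN and PDGFRA had at most 12 counts; other annotated genes cover 10.7% of the exons of THY1 and 15.8% of those of PDGFRA, so both are uncertain. The summed fibroblast level was 99.3 to 106 CPM in stiff and 72.9 to 80.4 CPM in soft, with COL1A1 holding most of it. In these bulk samples, fewer cells of a type and less RNA per cell cannot be told apart.

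FGFBP1 (Entrez 9982, chromosome 4, 15935577 to 15938740, minus strand) was about 10.0-fold higher in stiff than in soft Matrigel. It had 269, 338 and 249 CPM in stiff replicates 1, 2 and 3, against 30.1, 29.6 and 26.1 CPM in soft replicates 1, 2 and 3. The groups did not overlap, and stiff replicate 2 was the highest library. The means were 285 ± 47.1 CPM in stiff and 28.6 ± 2.18 CPM in soft (SD, n = 3 each), a log2 fold change of 3.32 ± 0.15 (SE). Without stiff replicate 2 the log2 fold change was 3.17. FGFBP1 stood at the 97.1 percentile of tested genes by mean CPM in stiff and at the 61.4 percentile in soft. The gene has a single transcript in both annotations used, and no other gene covered its exons.

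The promoter windows of FGFBP1, FGFR4 and FGFR2 are shown because these members differed most between the conditions. They are RefSeq sequences of GRCh38.p14, from 250 bases before to 50 bases after a listed start, printed 5′ to 3′ on the gene's strand. For FGFR4 and FGFR2, which have several listed starts, the outermost listed one is shown, and the counts do not tell which start was used; for FGFR2 the gene as annotated reaches slightly further upstream than that start. Capitals mark matches, on either strand, to any of 5 short motifs. The TATA box near a start was searched as the letters TATAAA. The motif of AP-1, a factor of immediate responses, was searched as TGANTCA with any base in the middle. The GC box, a common promoter element, was searched as GGGCGG wherever it occurred. The TEAD motif, bound by the partners of YAP, was searched as CATTCC in the same way. The E-box of the MYC family was searched as CACGTG, which reads alike on both strands. Matches to different motifs did not overlap.
FGFBP1, chr4:15938691-15938990, minus strand: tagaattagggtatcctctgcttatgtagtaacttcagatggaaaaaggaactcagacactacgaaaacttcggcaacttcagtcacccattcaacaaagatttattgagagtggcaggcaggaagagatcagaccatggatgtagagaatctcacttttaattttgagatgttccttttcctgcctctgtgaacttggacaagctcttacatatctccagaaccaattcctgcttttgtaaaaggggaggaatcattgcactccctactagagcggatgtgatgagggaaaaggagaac
FGFR4, chr5:177086665-177086964, plus strand: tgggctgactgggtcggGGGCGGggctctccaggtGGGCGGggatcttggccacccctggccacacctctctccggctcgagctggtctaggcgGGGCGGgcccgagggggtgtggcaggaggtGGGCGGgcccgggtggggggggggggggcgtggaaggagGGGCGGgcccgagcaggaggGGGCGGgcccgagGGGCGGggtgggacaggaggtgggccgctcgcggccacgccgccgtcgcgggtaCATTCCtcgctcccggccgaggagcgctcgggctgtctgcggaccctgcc
FGFR2, chr10:121598395-121598694, minus strand: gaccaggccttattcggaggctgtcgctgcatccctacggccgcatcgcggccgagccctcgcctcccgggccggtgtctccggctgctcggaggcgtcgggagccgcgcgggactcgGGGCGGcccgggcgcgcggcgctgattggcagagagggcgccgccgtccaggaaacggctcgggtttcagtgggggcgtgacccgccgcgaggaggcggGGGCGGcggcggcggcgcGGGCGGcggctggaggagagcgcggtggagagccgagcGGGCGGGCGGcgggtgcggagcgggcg
The FGFBP1 window held none of the 5 motifs, and 42.0% of its bases were G or C. The FGFR4 and FGFR2 windows held 7 and 5 GC box matches and were 78.7% and 79.3% G or C; FGFR4 also held 1 TEAD match. Of 35116 RefSeq promoter windows of the same length, 45.0% held a GC box, 14.0% the TEAD letters, 11.5% a TATA box, 7.71% an AP-1 match and 7.26% an E-box, and the median G and C content was 58.7%. A match is a description of the letters and not a binding site.

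**Figure D1:**
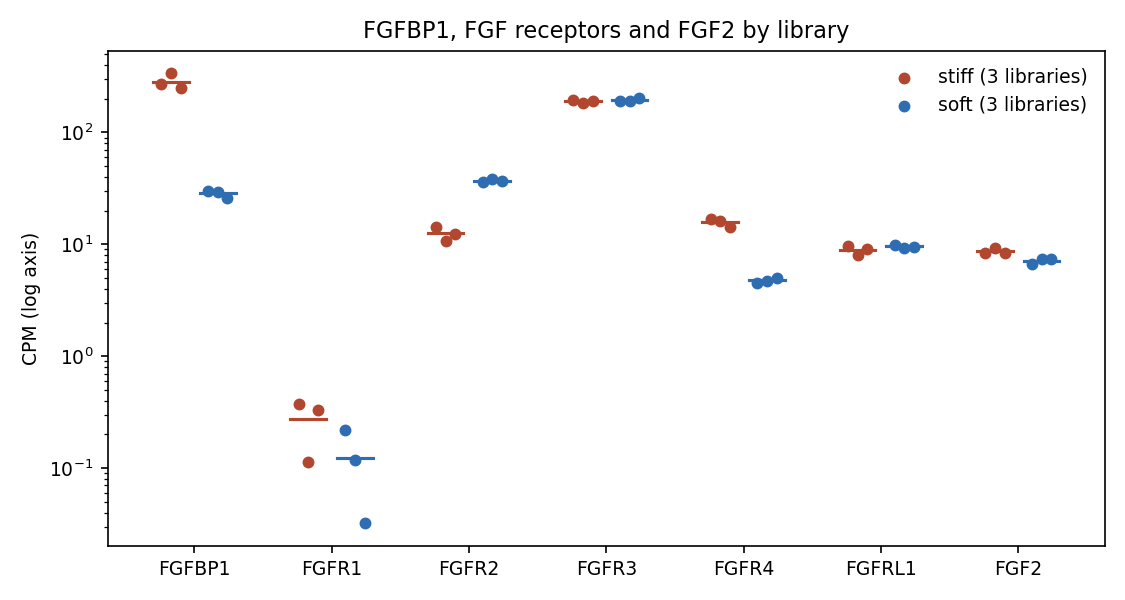
CPM of the 7 genes on a log axis, stiff left of soft for each gene, with a point for each of the 3 libraries per condition and a line at their mean. FGFBP1 and FGFR4 lie higher in all stiff libraries, FGFR2 lies lower, and FGFR3 lies near 190 CPM in both conditions (189 in stiff and 195 in soft).

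Among the receptors, FGFR3 was the most abundant by counts and differed little, FGFR4 was higher in stiff and FGFR2 was lower. FGFR3 (chromosome 4, 1793293 to 1808867) had 195, 182 and 190 CPM in stiff replicates 1 to 3, against 191, 191 and 205 CPM in soft replicates 1 to 3. The groups overlapped, with means of 189 ± 6.23 CPM in stiff and 195 ± 8.13 CPM in soft (SD, n = 3 each) and a log2 fold change of -0.05 ± 0.044 (SE).

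FGFR2 (chromosome 10, 121478330 to 121598458) encodes, in its epithelial splice form, the receptor for FGF7 and FGF10. It had 14.4, 10.7 and 12.4 CPM in stiff replicates 1 to 3, against 36.2, 38.6 and 36.6 CPM in soft replicates 1 to 3. The groups did not overlap, and stiff replicate 2 was the lowest library. The mean was 12.5 ± 1.82 CPM in stiff and 37.1 ± 1.28 CPM in soft (SD, n = 3 each), so FGFR2 was 2.97-fold lower in stiff, with a log2 fold change of -1.57 ± 0.12 (SE). The counts are per gene and do not separate the splice forms.

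FGFR4 (chromosome 5, 177086915 to 177098144), the receptor through which the endocrine ligand FGF19 acts in liver, went the other way. It had 16.8, 16.1 and 14.3 CPM in stiff replicates 1 to 3, against 4.55, 4.69 and 5.05 CPM in soft replicates 1 to 3, and the groups did not overlap. The mean was 15.7 ± 1.30 CPM in stiff and 4.76 ± 0.257 CPM in soft (SD, n = 3 each). FGFR4 was 3.31-fold higher in stiff, with a log2 fold change of 1.73 ± 0.083 (SE).

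FGFR1 (chromosome 8, 38411143 to 38468635), the receptor most often described in mesenchymal cells, was close to absent. It had 13, 4 and 12 counts in stiff replicates 1 to 3, against 9, 4 and 1 counts in soft replicates 1 to 3, and the groups overlapped. The summed counts were 29 in stiff and 14 in soft, a scaled ratio of 2.08 (1.07 to 4.26, Clopper-Pearson 95% bounds). These bounds cover counting error only, since amplified fragments are not independent molecules, and 3 counts correspond to 0.0722 to 0.0965 CPM in these libraries. The deposited TPM list FGFR1 at 0 in all 6 libraries.

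FGFRL1 (chromosome 4, 1010212 to 1026898) had 9.68, 7.99 and 9.12 CPM in stiff replicates 1 to 3, against 9.94, 9.35 and 9.55 CPM in soft replicates 1 to 3. The groups overlapped through stiff replicate 1, and the log2 fold change was -0.11 ± 0.085 (SE). FGF2 (chromosome 4, 122826682 to 122898236), the ligand that FGFBP1 carries, had 8.29, 9.31 and 8.43 CPM in stiff replicates 1 to 3, against 6.62, 7.36 and 7.40 CPM in soft replicates 1 to 3. The groups did not overlap, and FGF2 was 1.22-fold higher in stiff, with a log2 fold change of 0.29 ± 0.073 (SE). NUDT6 covers 11.9% of the exons of FGF2 on the opposite strand and had 95 to 138 counts per library, so the FGF2 counts are uncertain. Of the 6 members that passed the filter, 3 were higher and 1 was lower in stiff without overlap of the groups. Among all 18676 tested genes 59.9% did not overlap, and since the members were chosen with this comparison known, nothing is read from their count.

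To compare levels between genes, a value per length is needed, and the deposited TPM carry lengths that differ between genes in an unusual way. TPM are counts divided by a gene length and scaled to a fixed total per library. The length behind each value follows from the ratio of counts to TPM, up to a constant set here on 192 genes with 1 transcript in both annotations. Of these, 65.1% had an implied length within 20% of their exon length. For FGFBP1 the implied length was 1346 bases, against 1359 exon bases in GENCODE release 29. For FGFR3 it was 55368 bases, against 4848 exon bases and a whole gene of 15575 bases. For FGFR2 it was 100806 bases against 7578 exon bases, a ratio of 13.3. That length is approximate, since it rests on deposited TPM of 0.4 to 1.6 given to 1 decimal. The ratio was 5.15 for FGFRL1, 3.07 for FGFR4 and 1.96 for FGF2.

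The same held across the table. Over 5930 genes with more than 1000 counts in each library and an exon length, the median ratio was 0.997 for genes with 1 RefSeq transcript and 1.88 for genes with 2. It was 3.05 for genes with 3 to 4 transcripts, 5.08 for 5 to 9 and 9.92 for 10 or more. The implied length thus grew with the number of annotated transcripts. Fold changes of 1 gene between libraries do not depend on its length, but levels set between genes do. Levels below are therefore also given per exon base, as counts over the GENCODE 29 exon length scaled to the same total, an alternative chosen after the data were seen. That length joins the exons of all annotated transcripts of a gene, 27 for FGFR2 and 11 for FGFR3 against 1 for FGFBP1. It can exceed the length of the transcripts expressed, so this scale may set the receptors too low against FGFBP1.

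**Figure D2:**
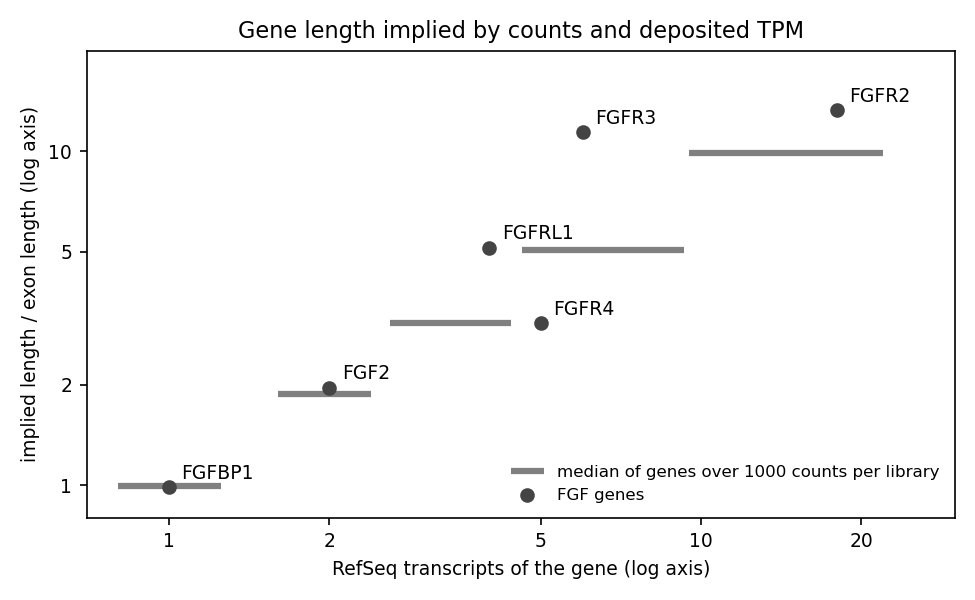
Ratio of the implied gene length to the exon length against the number of RefSeq transcripts, both on log axes. Grey lines are medians of genes with more than 1000 counts per library in 5 groups by transcript number, and points are the 6 FGF genes with a value; FGFBP1 sits at 0.990 and FGFR3 and FGFR2 at 11.4 and 13.3.

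Per exon base, FGFBP1 was the most abundant of the 7 in stiff and FGFR3 in soft. In stiff the order was FGFBP1 (837 ± 101 TPM per exon base), FGFR3 (157 ± 11.3), FGFR4 (13.04 ± 1.08), FGFRL1 (8.66 ± 1.16), FGFR2 (6.63 ± 1.19) and FGF2 (5.12 ± 0.113; SD, n = 3 for each). FGFRL1 and FGFR2 overlapped in stiff, so their order is not beyond the spread. In soft the order was FGFR3 (177 ± 6.98 TPM per exon base), FGFBP1 (92.6 ± 7.81), FGFR2 (21.6 ± 0.533), FGFRL1 (10.2 ± 0.480), FGF2 (4.62 ± 0.217) and FGFR4 (4.34 ± 0.202; SD, n = 3 for each). FGF2 and FGFR4 overlapped in soft. FGFR1 was last in both, at 0.0804 ± 0.0434 in stiff and 0.0390 ± 0.0300 in soft.

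With the deposited TPM the order of FGFBP1 and FGFR3 in soft was the other way round. FGFBP1 was at 828 ± 88.3 deposited TPM in stiff and 90.3 ± 8.51 in soft, close to its values per exon base. FGFR3 was at 13.5 ± 1.19 deposited TPM in stiff and 14.97 ± 0.681 in soft (SD, n = 3 each). The ratio of FGFBP1 to FGFR3 per exon base was 4.66 to 6.62 in the stiff libraries and 0.455 to 0.562 in the soft libraries. In deposited TPM it was 53.6 to 76.4 in stiff and 5.26 to 6.49 in soft. FGFBP1 exceeded its ligand FGF2 per exon base 147-fold to 181-fold in stiff and 17.6-fold to 22.7-fold in soft.

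**Figure D3:**
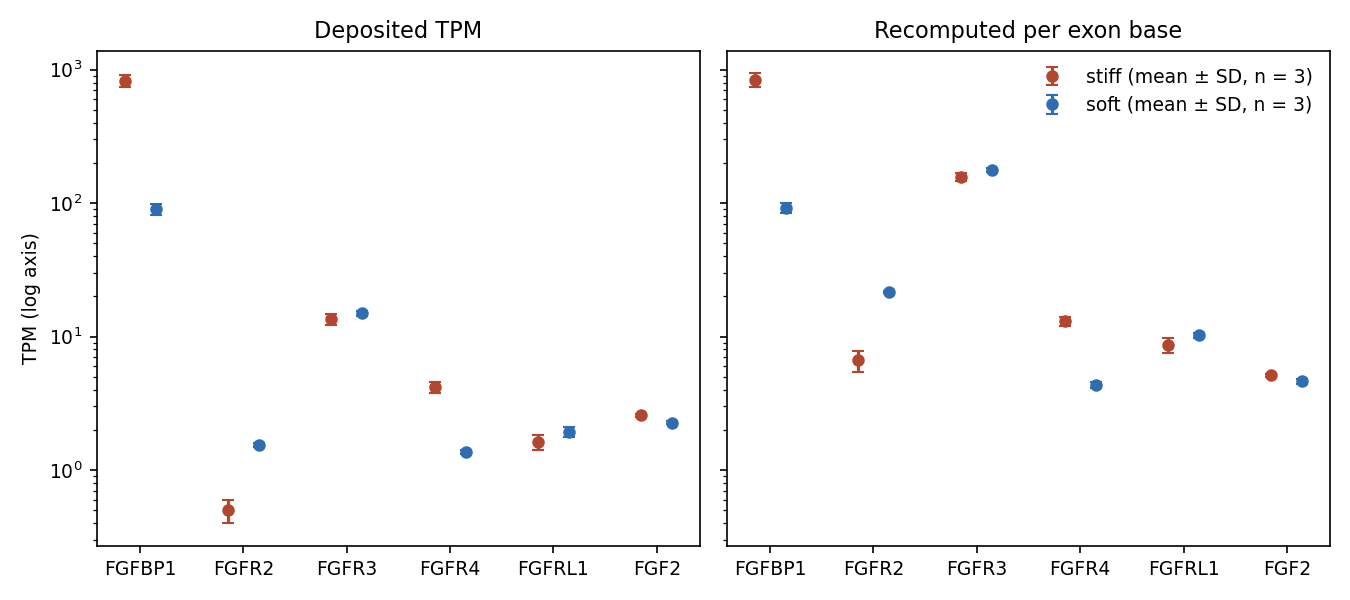
Deposited TPM (left panel) and TPM recomputed per exon base (right panel) of 6 genes on a shared log axis, stiff left of soft, mean and SD of 3 libraries; FGFR1, listed at 0 in the deposited TPM, is left out. FGFR3 in soft lies below FGFBP1 in the left panel (14.97 against 90.3) and above it in the right panel (177 against 92.6).

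The make-up of the 4 receptors differed between the conditions in its minor parts. Per exon base, FGFR2 held 4.16%, 3.33% and 3.74% of FGFR1 to FGFR4 in stiff replicates 1 to 3, against 10.6%, 11.2% and 10.0% in soft replicates 1 to 3. FGFR4 held 7.63%, 7.87% and 6.74% in stiff replicates 1 to 3, against 2.09%, 2.14% and 2.17% in soft replicates 1 to 3. FGFR4 thus outweighed FGFR2 in each stiff library, and FGFR2 outweighed FGFR4 in each soft library. The ratio of FGFR2 to FGFR4 per exon base was 0.423 to 0.556 in stiff and 4.62 to 5.25 in soft.

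FGFR3 held the bulk in every library, at 88.8% ± 0.658 in stiff and 87.2% ± 0.590 in soft per exon base (SD, n = 3 each). In deposited TPM, FGFR3 held 74.3% ± 1.59 in stiff and 83.8% ± 0.414 in soft, so the direction of its share depends on the length used. FGFR2 held 2.74% ± 0.327 in stiff and 8.59% ± 0.379 in soft on that scale, and FGFR4 held 23.0% ± 1.604 in stiff and 7.65% ± 0.0419 in soft. The FGFR2 values rest on deposited TPM of 0.4 to 1.6 given to 1 decimal. The FGFR4 values in soft likewise rest on deposited TPM of 1.3 to 1.4, so the SD of that share may understate its spread. The 4 receptors summed to 209 to 226 CPM in stiff and 232 to 246 CPM in soft, so the groups did not overlap.

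**Figure D4:**
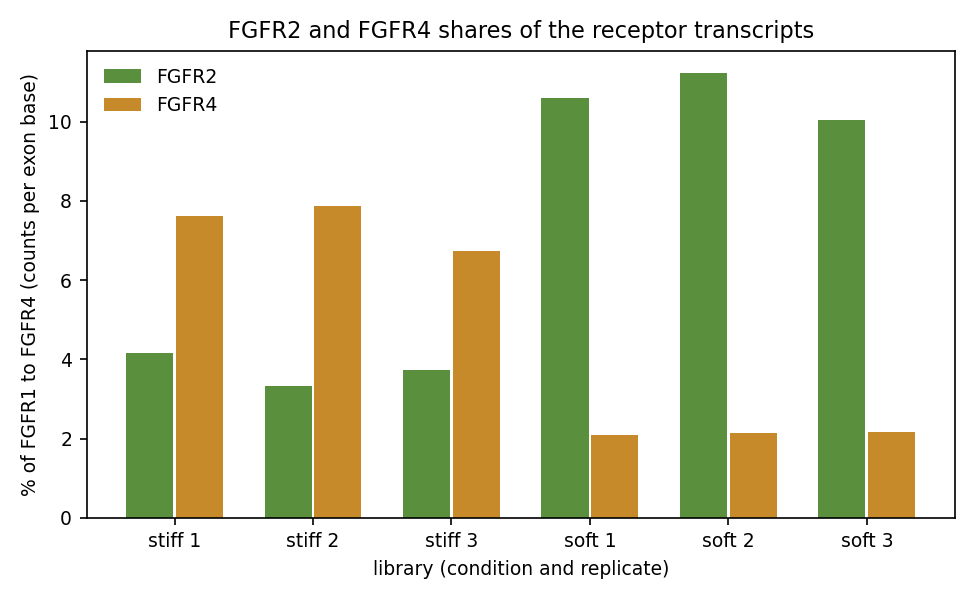
Share of FGFR1 to FGFR4 (counts per exon base, in %) held by FGFR2 and FGFR4 in each library, bars starting at 0. The FGFR4 bar is the taller in the 3 stiff libraries (6.74% to 7.87%) and the FGFR2 bar in the 3 soft libraries (10.0% to 11.2%).

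The genes whose profile over the 6 libraries lay nearest to that of FGFBP1 were sought by Euclidean distance of centred log2 CPM, among 12429 genes that averaged 5 CPM or more. The nearest 5 were SPRR1A (distance 0.331), LOC107985401 (0.534), TENT5B (0.577), KRT16 (0.632) and EMP3 (0.633). SPRR1A is a precursor of the cornified envelope and KRT16 a keratin of activated keratinocytes. SPRR1A was at 12.8 ± 2.54 CPM in stiff and 1.18 ± 0.163 CPM in soft (SD, n = 3 each), and KRT16 at 1610 ± 198 CPM in stiff and 118 ± 8.11 CPM in soft. All 5 had non-overlapping groups, a direction that this choice by likeness fixes.

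The chromosomal neighbours of FGFBP1 did not share its size of difference. Of the protein-coding genes within 500 kb, the adjacent FGFBP2, a related gene, had 0 counts in all 6 libraries, as did C1QTNF7, and PROM1 had 2 to 6 counts per library. PROM1 covers 13.3% of the exons of FGFBP2, so the FGFBP2 counts are uncertain. In edgeR's quasi-likelihood test with Benjamini-Hochberg adjustment, FAM200B rose 1.47-fold (adjusted p = 0.00155) and FBXL5 rose 1.17-fold (adjusted p = 0.0411). CC2D2A fell 1.63-fold (adjusted p = 0.00244). The FBXL5 call held in 5 of 15 alternatives (adjusted p between 0.0225 and 0.258), and the FAM200B call was lost in unfiltered limma on log2(TPM + 1) (0.103). BST1, CD38 and TAPT1 did not pass (adjusted p = 0.128, 0.366 and 0.749), although BST1 passed without soft replicate 3 (log2 fold change 1.83 in place of 1.06, adjusted p = 0.0281). FAM200B was at 10.0 ± 0.629 CPM in stiff and 6.81 ± 0.187 CPM in soft (SD, n = 3 each).

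The other genes of the pathway were tested in the same fit over all genes. Of 99 listed genes 73 passed the filter, of which 21 rose, 14 fell and 38 did not pass, or 47.9% called. Of all 18676 tested genes 49.1% were called (25.3% higher and 23.8% lower in stiff), so the share of called pathway genes was close to the background. The median log2 fold change was 0.05 over the 73 genes and -0.00017 over all tested genes.

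**Figure D5:**
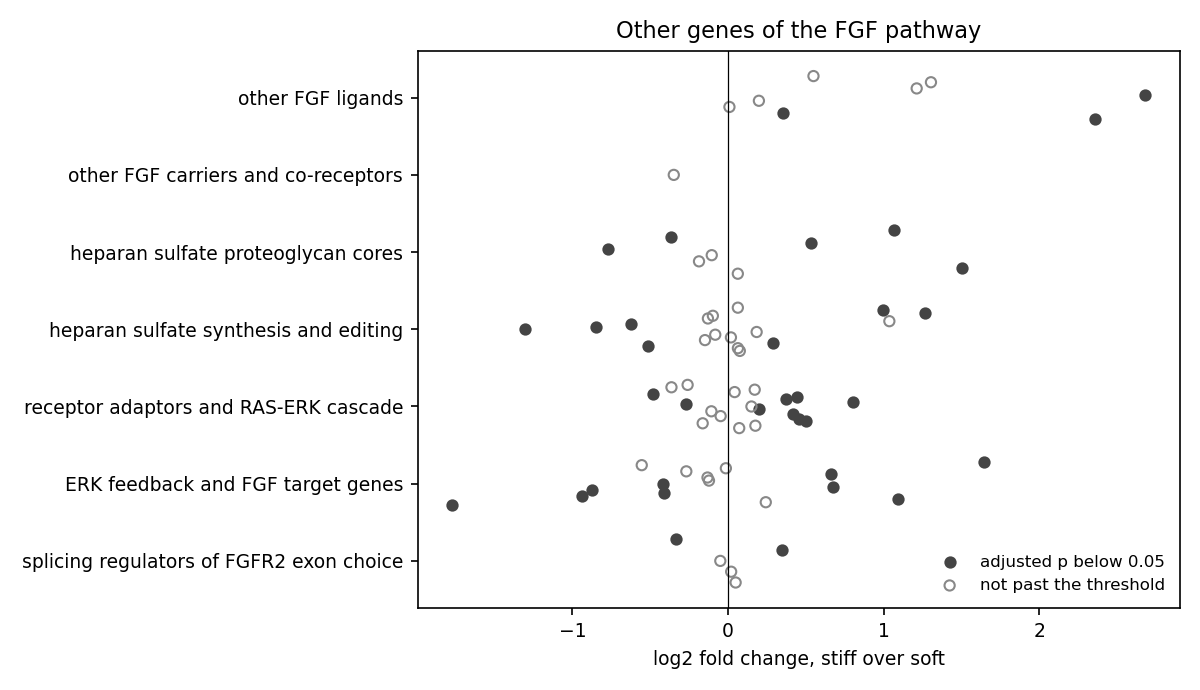
log2 fold change, stiff over soft, of the 73 tested pathway genes in 7 lists; filled points have an adjusted p below 0.05 and open points do not. Filled points lie on both sides of 0 in the 4 lists of heparan sulfate cores, heparan sulfate enzymes, adaptors with the ERK cascade, and feedback genes, and in the list of splicing regulators.

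Of 21 other ligands, 8 passed the filter, of which 3 rose and 5 did not pass (median log2 fold change 0.88). FGF1, a ligand that binds all 4 receptors, had 7.77, 6.59 and 6.18 CPM in stiff replicates 1 to 3, against 1.28, 0.850 and 1.897 CPM in soft replicates 1 to 3. It rose 5.14-fold (edgeR adjusted p = 2.91e-05), and the groups did not overlap. In unfiltered limma on log2(TPM + 1) its call was lost, at an adjusted p of 0.0519, and the other alternatives gave 2.22e-21 or more.

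FGF19 was near the detection limit, with 12, 14 and 14 counts in stiff replicates 1 to 3, against 4, 2 and 0 counts in soft replicates 1 to 3. The scaled ratio of its summed counts was 6.70 (2.82 to 19.3, the same kind of bounds), and it rose in the test (edgeR log2 fold change 2.68, adjusted p = 0.00443; 3.47 and 0.00965 without soft replicate 1). Its co-receptor gene KLB had 5 or 6 counts in each stiff library and 3 to 14 counts in the soft libraries, below the filter. FGF11, an intracellular member of the family that is not secreted, rose 1.28-fold to 14.0 ± 1.07 CPM in stiff, against 10.98 ± 0.664 CPM in soft (SD, n = 3 each, edgeR adjusted p = 0.0146). Another annotated transcript unit covers 75.0% of its exons, so its counts are uncertain, and its call was lost without soft replicate 1 (adjusted p = 0.0726), without soft replicate 2 (0.0535) and in the 3 limma settings (0.0576 to 0.0782), so that it held in 10 of 15 alternatives.

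FGF7, FGF10 and FGF22, ligands of the epithelial FGFR2 form, were low. FGF7 had 12 to 26 counts per library in stiff and 7 to 16 in soft (edgeR adjusted p = 0.314), and FGF22 had 8 to 18 in stiff and 2 to 11 in soft (adjusted p = 0.10). FGF10 had at most 3 counts. FGF22 passed without soft replicate 2 (log2 fold change 2.00 in place of 1.21, adjusted p = 0.0325) and with the replicate number as a block (adjusted p = 0.0458). FGF5, FGF13 and FGF17 did not pass either (adjusted p = 0.0733, 0.986 and 0.559). FGF5 passed without soft replicate 1 (log2 fold change 2.12 in place of 1.30, adjusted p = 0.0346). Among fibroblast markers, LUM rose 7.55-fold, a call that held in 15 of 15 alternatives. COL1A1 passed by a narrow margin (1.15-fold higher in stiff, adjusted p = 0.0432), and its call held in 4 of 15 alternatives (adjusted p between 0.0025 and 0.522); among the losses were those without soft replicate 1, soft replicate 2, soft replicate 3, stiff replicate 1 and stiff replicate 3 (0.0548 to 0.189). PDGFRB and COL1A2 did not pass (adjusted p = 0.271 and 0.910), and PDGFRB passed without soft replicate 3 (log2 fold change 1.62 in place of 0.79, adjusted p = 0.0491). The part of the fibroblast markers in these ligand values was not tested. Of the other carriers and co-receptors, FGFBP3 alone passed the filter, at 0.868 ± 0.155 CPM in stiff and 1.10 ± 0.167 CPM in soft (SD, n = 3 each, adjusted p = 0.280); an antisense gene covers 10.6% of its exons, so its counts are uncertain.

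Heparan sulfate chains, which present FGFs to their receptors, are borne by membrane and matrix core proteins. Of 12 core protein genes 8 passed the filter, of which 3 rose, 2 fell and 3 did not pass (median log2 fold change -0.02). GPC1, a glypican anchored at the cell surface, rose 2.84-fold, with 608 ± 16.5 CPM in stiff and 214 ± 8.42 CPM in soft (SD, n = 3 each, edgeR adjusted p = 2.20e-07). SDC4 and SDC1, transmembrane syndecans, rose 2.09-fold and 1.45-fold (adjusted p = 4.39e-06 and 8.15e-05). SDC1 reached 1071 ± 34.4 CPM in stiff, against 740.0 ± 14.96 CPM in soft. HSPG2, the basement membrane core perlecan, fell 1.71-fold and SDC3 fell 1.29-fold; both were named once their values had been seen. The SDC3 call was lost without soft replicate 1 (adjusted p = 0.0575, between 0.00197 and 0.0621 over the alternatives). LDLRAD2 covers 11.7% of the exons of HSPG2 on the opposite strand, so the HSPG2 counts are uncertain, and its call was lost in unfiltered limma (adjusted p = 0.058).

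Of 23 genes that build or edit the chains 17 passed the filter, of which 3 rose, 4 fell and 10 did not pass (median log2 fold change 0.02). HS6ST1 and HS6ST2, which add the 6-O-sulfates that FGF signalling needs, fell 1.80-fold and 1.54-fold (edgeR adjusted p = 1.90e-05 and 0.000332). HS6ST1 was at 146 ± 14.2 CPM in stiff and 264 ± 6.42 CPM in soft (SD, n = 3 each). SULF2, an extracellular enzyme that removes 6-O-sulfates, rose 2.00-fold, with 182 ± 26.9 CPM in stiff and 90.9 ± 7.40 CPM in soft (adjusted p = 5.30e-05). The count that rose was 1 without soft replicate 1, soft replicate 2 or stiff replicate 1, 2 without stiff replicate 3, and 5 without stiff replicate 2.

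Of 19 adaptor and ERK cascade genes, all of which passed the filter, 7 rose, 2 fell and 10 did not pass (median log2 fold change 0.15). MAPK3, which encodes the kinase ERK1, rose 1.75-fold, with 84.5 ± 3.47 CPM in stiff and 48.3 ± 1.70 CPM in soft (SD, n = 3 each, edgeR adjusted p = 1.00e-05). NRAS rose 1.29-fold (adjusted p = 0.00144), and the phosphatase gene PTPN11 fell 1.40-fold (adjusted p = 0.00294). FRS2, the docking protein of the receptors, did not pass (adjusted p = 0.212; named after its values were seen). The counts that rose were 4 without soft replicate 2, 4 without soft replicate 3 and 10 without stiff replicate 2. The counts that fell were 1 without soft replicate 1, 1 without soft replicate 3 and 4 without stiff replicate 1.

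Of 15 feedback and target genes, all of which passed the filter, 4 rose, 5 fell and 6 did not pass (median log2 fold change -0.13). DUSP4 and DUSP6 both encode phosphatases that switch off MAP kinases, and they went in opposite directions. DUSP6 rose 2.14-fold, with 23.6 ± 3.79 CPM in stiff and 11.05 ± 1.39 CPM in soft (SD, n = 3 each, edgeR adjusted p = 0.000109), although an antisense gene covers 40.5% of its exons and makes its counts uncertain. DUSP4 fell 3.41-fold, with 4.83 ± 0.296 CPM in stiff and 16.5 ± 1.13 CPM in soft (adjusted p = 1.10e-06). PHLDA1 fell 1.33-fold (adjusted p = 0.00155). The antisense genes AC011611.3 and AC011611.4 cover 6.85% and 9.65% of its exons. Their joint cover was not measured, so its counts may be uncertain too. The count that fell was 3 without soft replicate 2 and 3 without stiff replicate 1.

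Of 5 splicing regulators that act on the choice between the epithelial and mesenchymal exons of FGFR2, 1 rose, 1 fell and 3 did not pass. RBFOX2 rose 1.27-fold, with 280 ± 2.83 CPM in stiff and 220 ± 6.63 CPM in soft (SD, n = 3 each, edgeR adjusted p = 0.00107), and TIA1 fell 1.26-fold (adjusted p = 0.0248). In limma on log2(TPM + 1) neither passed (adjusted p = 0.120 for RBFOX2 and 0.0736 for TIA1). Over the alternatives the highest adjusted p was 0.128 for RBFOX2 and 0.104 for TIA1, and the TIA1 call was also lost without soft replicate 1 (adjusted p = 0.0506) and without soft replicate 3 (adjusted p = 0.104). ESRP1 and ESRP2, which promote the epithelial exon, were at 202 ± 12.8 and 81.9 ± 0.538 CPM in stiff and at 195 ± 3.16 and 80.7 ± 4.19 CPM in soft (SD, n = 3 each, adjusted p = 0.575 and 0.820; named after their values were seen).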

How the data were processed

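Polyadenylated RNA of 6 Cal27 spheroid libraries was sequenced. The authors deposited whole-number counts per gene symbol and TPM to 1 decimal. Per the submitters' processing notes, the tools were featureCounts 1.6.2 and STAR 2.6.1e on hg38, with cutadapt 1.9.1, FastQC 0.11.7 and Trim Galore 0.4.2. The sources used here do not give the annotation, strand setting or gene lengths.

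Counts were tested, stiff against soft, with edgeR 4.0.16 in R 4.3.3 (quasi-likelihood, TMM, default expression filter, no covariate), with Benjamini-Hochberg adjustment over all tested genes and a threshold of 0.05. CPM use TMM-scaled library sizes. The SE of a log2 fold change comes from the spread of log2 CPM (prior count 2) between libraries, and values after ± are otherwise SD. The labels call the samples biological replicates but do not tell separate cultures, so p-values reflect how these libraries spread, which may be technical. Every pair of libraries within a condition differed by more than sampling noise (chi-square at least 3.41 per degree of freedom).

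The members and the gene lists were chosen with earlier results of these data known. Named were all members, every ligand and carrier past the filter, the 3 smallest p among called genes of each other list, the 5 genes most like FGFBP1 and its neighbours within 500 kb. Positions and promoters are RefSeq GRCh38.p14; exons and overlaps are GENCODE 29, also GRCh38. Where another gene covers 10% or more of the exon bases, counts are called uncertain; this limit was chosen with the values known. On simulated counts of 18676 genes, of which only a small part was changed, 11.6% of edgeR calls were false. It recovered 96% of 4-fold, 72% of 2-fold, 54% of 1.5-fold and 6% of 1.25-fold changes. In the data 49.1% of genes were called, so these shares do not carry over to the real calls.

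Alternatives were DESeq2 1.42.0, other scaling factors and filters, limma 3.58.1 on log2 TPM, a replicate block and leaving out each library. The receptor share per exon base was added after seeing the data.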

Additional observations from a re-analysis of the deposited data

How the results depend on the processing

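All 6 tested members kept the sign of their log2 fold change under the 15 alternatives, with FGFBP1 between 3.17 and 3.41, FGFR4 between 1.12 and 1.79, FGFR2 between -1.68 and -0.76, and FGF2 between 0.13 and 0.32; FGFR3 (-0.15 to -0.018) and FGFRL1 (-0.23 to -0.033) stayed near 0. Pathway genes higher in stiff numbered 21 with edgeR, 20 with DESeq2, 8 with limma on log2(TPM + 1), 7 on log2(TPM + 0.1) and 8 on log2(TPM + 1) without a filter; those lower numbered 14 with edgeR, 14 with DESeq2, and 11, 11 and 9 in the same 3 limma settings. Of all genes, 4722 were higher with edgeR and 2880, 2831 and 3138 in those 3 limma settings; the cause was not tested. With each library left out, pathway genes numbered 15 to 26 higher and 11 to 15 lower. Library size scaling alone gave 4181 higher and 5170 lower genes (4449 lower with TMM). On log2(TPM + 0.1) the median of all genes shifted by -0.11, so that FGFR3 at -0.15 lies near it.

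The receptor shares depended on the length used. As shares of counts and per exon base, FGFR2 held 5.73% and 3.74% in stiff and 15.7% and 10.6% in soft, FGFR3 held 86.9% and 88.8% in stiff and 82.3% and 87.2% in soft, and FGFR4 held 7.23% and 7.41% in stiff and 2.00% and 2.13% in soft. The difference follows from the gene length, which is the only change between these settings.

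With the replicate number as a block, 24 pathway genes were higher and 16 lower (5167 and 5039 of all genes), and FGFBP1 was at 3.31. Same-numbered libraries correlated in their deviations at 0.073, 0.22 and 0.050, and differently numbered ones at -0.16 to 0.093. The pair of replicates numbered 2 was the highest, but the other same-numbered pairs lay within that range, so the pairing was not taken as shown. Depth limits FGFR1, FGF19 and the other genes with few counts.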

Other observations

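Further feedback and target genes, named after their values were seen, went in both directions. Of the inhibitors of receptor and RAS signalling, SPRY4 rose 3.13-fold, with 1.42 ± 0.236 CPM in stiff and 0.443 ± 0.174 CPM in soft (SD, n = 3 each, edgeR adjusted p = 0.0019), although it did not pass in unfiltered limma on log2(TPM + 1) (adjusted p = 0.185, with alternatives from 1.01e-05 up to that value). IL17RD rose 1.59-fold and SPRED3 rose 1.58-fold, calls lost in the same setting (adjusted p = 0.139 and 0.213); SPRED3 also lost its call without soft replicate 2 (adjusted p = 0.0594). SPRY1, SPRY2, SPRY3, SPRED1 and SPRED2 did not pass (adjusted p = 0.0684 to 0.942). SPRY1, with a log2 fold change of -0.27, passed without stiff replicate 2 (adjusted p = 0.0212) and with library size scaling alone (0.0475). SPRY3, with a log2 fold change of -0.55, passed without soft replicate 1 (adjusted p = 0.0389) and with library size scaling alone (0.0461). The transcription factor genes ETV1, ETV4 and ETV5, commonly read as FGF targets, fell 1.91-fold, 1.33-fold and 1.83-fold. The ETV1 call held in 7 of 11 alternatives, being lost with DESeq2 (adjusted p = 0.0716) and without soft replicate 2 (0.0928), stiff replicate 1 (0.0667) or stiff replicate 2 (0.0595). The ETV4 call held in 11 of 15 alternatives, being lost without soft replicate 1 (adjusted p = 0.0783), soft replicate 2 (0.0873), stiff replicate 1 (0.0533) or stiff replicate 3 (0.0648). The ETV5 call held in 15 of 15 alternatives. ETV5 was at 1.99 ± 0.245 CPM in stiff and 3.65 ± 0.323 CPM in soft (SD, n = 3 each, edgeR adjusted p = 0.00194).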
